A study of Homo sapiens with 24 samples.

Results

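The 10 genes described here belong to the integrated stress response that runs through the transcription factor ATF4: ATF4 itself, ATF3, DDIT3, TRIB3, CHAC1, SESN2, ASNS, PSAT1, PHGDH and SHMT2. They were chosen by name as ATF4 and known members of its pathway, with earlier results of these data known. All 10 were found among the 13236 gene groups of the deposited count tables, with 83 of the 164219 bins into which the tables divide genes. All libraries came from HEK293T, a long-established line of human embryonic kidney origin that carries the SV40 large T antigen. One set of cultures received OSMI-2 at 10 µM, which inhibits OGT, the enzyme that attaches O-GlcNAc sugar to proteins inside the cell, and another set received TMG at 5 µM, which inhibits OGA (MGEA5 in the tables), the enzyme that removes it. Treatment lasted 2 h or 6 h, each drug and time had DMSO libraries of its own, and all cultures had been given fresh medium 3 h before treatment. There were thus 8 groups: drug and DMSO at both times for OSMI-2 (the OSMI-2 experiment), and the same 4 for TMG (the TMG experiment). Each had 3 libraries, named a, b and c after the table columns, except OSMI-2 6 h, which had 2, and its other library was not analysed here. No label says whether the libraries of a group came from separate cultures, so p-values measure the spread between these libraries, which may be technical.

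When amino acids run short, unfolded protein builds up in the endoplasmic reticulum or other stresses act, kinases phosphorylate the translation factor eIF2, general translation drops, and the ATF4 message is translated more efficiently through its upstream reading frames. ATF4 then drives genes for amino acid synthesis and uptake, one-carbon metabolism and redox balance, and, under lasting stress, genes linked to cell death. ATF3 and DDIT3 (CHOP) are further stress transcription factors, TRIB3 is a pseudokinase that feeds back on the pathway, CHAC1 degrades glutathione, and SESN2 restrains mTORC1. ASNS makes asparagine, PHGDH and PSAT1 catalyse the first steps of serine synthesis, and SHMT2 moves one-carbon units from serine in the mitochondrion. Since ATF4 is set largely by translation, its RNA level is not a measure of its protein. On hg19, the build of the tables, the regulators lie as follows: ATF4 at chr22:39916570-39918269 (plus strand, 4 bins), ATF3 at chr1:212781971-212791576 (plus strand, 4 bins), DDIT3 at chr12:57910374-57914300 (minus strand, 5 bins), TRIB3 at chr20:361309-378206 (plus strand, 5 bins), CHAC1 at chr15:41245637-41248713 (plus strand, 2 bins) and SESN2 at chr1:28585964-28609005 (plus strand, 10 bins). The enzymes are ASNS at chr7:97481441-97501854 (minus strand, 15 bins), PSAT1 at chr9:80912060-80945012 (plus strand, 10 bins), PHGDH at chr1:120254420-120286841 (plus strand, 13 bins) and SHMT2 at chr12:57623357-57628721 (plus strand, 15 bins).

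ATF4 binds composite elements of the form TGATGNAA (the CARE core), and an AARE form TTGCATCA is also known. RefSeq promoter windows on GRCh38.p14, a build other than that of the counts, were found for 9 of the 10 genes, all but SHMT2, and the 250 bases before the transcription start of each were searched on both strands for TGATGNAA, TTGCATCA and the CRE core TGACGTCA. The windows of ATF3, ASNS and CHAC1 held a match and are shown because these 3 genes moved differently from each other in the results that follow; the capitals mark the match.
CHAC1 upstream region (chr15:40953221-40953470, plus strand): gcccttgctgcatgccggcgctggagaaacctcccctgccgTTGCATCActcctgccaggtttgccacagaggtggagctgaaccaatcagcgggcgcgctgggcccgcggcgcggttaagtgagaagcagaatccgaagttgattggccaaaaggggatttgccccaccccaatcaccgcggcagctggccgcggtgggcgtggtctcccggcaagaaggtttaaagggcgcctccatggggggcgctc
ASNS upstream region (chr7:97872409-97872658, minus strand): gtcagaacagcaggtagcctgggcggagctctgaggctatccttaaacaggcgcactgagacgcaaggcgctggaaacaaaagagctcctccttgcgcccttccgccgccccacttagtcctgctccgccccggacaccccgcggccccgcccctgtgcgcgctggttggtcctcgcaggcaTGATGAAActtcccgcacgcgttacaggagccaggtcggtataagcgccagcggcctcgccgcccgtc
ATF3 upstream region (chr1:212565157-212565406, plus strand): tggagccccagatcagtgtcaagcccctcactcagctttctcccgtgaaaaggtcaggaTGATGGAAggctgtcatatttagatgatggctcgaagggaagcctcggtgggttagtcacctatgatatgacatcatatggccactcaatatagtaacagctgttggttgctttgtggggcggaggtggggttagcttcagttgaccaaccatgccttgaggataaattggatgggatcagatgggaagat
In CHAC1 the 8 letters TTGCATCA begin 209 bases before the start and are at once the AARE form on the strand shown and the CARE core on the other strand. In ASNS the match TGATGAAA begins 68 bases before the start, and in ATF3 TGATGGAA begins 191 bases before the start of the first of its 2 windows. No window of these genes held TGACGTCA. Over all 35116 RefSeq windows of this length, 3.14% held TGATGNAA, 0.772% TTGCATCA and 1.65% TGACGTCA, against 3, 1 and 0 of the 15 windows of these genes. A match describes letters in the window and is neither a binding site nor a cause of any change.

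Library totals ran from 39465746 to 100161560 counts. Of the 10 genes the lowest was CHAC1 with 24 to 746 counts per library and the highest PHGDH with 21059 to 120934. HEK293T markers had counts in all libraries, with VIM at 306 to 787 CPM of the library total (CPM, counts per megacount). KRT18 had 16.8 to 112 CPM, KRT8 9.33 to 70.5 CPM, INA 7.71 to 35.5 CPM, LIN28B 4.06 to 113 CPM and PAX2 1.21 to 4.20 CPM. NEFM, at 0.300 to 2.20 CPM, reached into the range of the fibroblast collagen COL3A1, at 0.150 to 0.793 CPM. The experiments differed in base composition. In genes with a mean of at least 50 counts, the slope of log2 counts on transcript GC content per 10 percentage points was 0.833 to 1.15 in 10 libraries of the OSMI-2 experiment and 0.424 in its DMSO 6 h library a, which stands apart; in the TMG experiment it was -0.540 to -0.235. The edgeR tests that use DMSO 6 h library a were therefore repeated without it. Their calls are given, with fold changes for part of the genes, while overlap between groups was not counted again. On the log2 scale OSMI-2 for 6 h changed OGT by -1.85 (SE 0.33) and MGEA5 by -1.93 (SE 0.33), or by -1.41 and -1.66 without that library, whereas TMG for 6 h changed OGT by -0.48 (SE 0.07) and MGEA5 by 0.72 (SE 0.06).

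Per kilobase of counted sequence and on plain library totals, ATF4 had the highest level of the 10 genes in all 8 groups. In the DMSO 2 h libraries of the TMG experiment the order of the levels was ATF4 (383 ± 23.3 CPM per kb, SD, n = 3), ASNS (281 ± 17.7), PHGDH (243 ± 5.96), PSAT1 (198 ± 1.12), SHMT2 (157 ± 3.35), SESN2 (13.5 ± 0.312), TRIB3 (7.35 ± 0.325), ATF3 (4.79 ± 0.691), DDIT3 (4.62 ± 0.338) and CHAC1 (0.438 ± 0.129). In this group the 5 abundant genes were thus ATF4 and the metabolic enzymes, and the stress regulators lay at least an order of magnitude below them. ATF3 and DDIT3 overlapped. In the DMSO 2 h libraries of the OSMI-2 experiment ATF4 was at 782 ± 99.2 CPM per kb and PHGDH at 424 ± 48.9, while ASNS was at 52.0 ± 17.7, PSAT1 at 48.4 ± 12.4 and CHAC1 at 2.83 ± 0.519, with ASNS and PSAT1 overlapping. Across all groups ASNS had 22.2 to 64.1 CPM per kb in libraries of the OSMI-2 experiment and 115 to 301 in those of the TMG experiment, and PSAT1 17.7 to 66.3 and 163 to 208, without overlap. SESN2 lay the other way, at 31.1 to 59.9 and 13.3 to 25.6 CPM per kb. CHAC1 was apart between the DMSO groups at 2 h only: at 6 h its DMSO libraries had 1.85 to 2.75 CPM per kb in the OSMI-2 experiment and 1.99 to 2.49 in the TMG experiment. The part of base composition in these differences was not tested, and fold changes are taken within an experiment.

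OSMI-2 for 2 h gave no detectable change in any of the 10 genes. Their log2 fold changes against DMSO ran from -0.31 (ASNS, SE 0.30) to 0.18 (ATF3, SE 0.18) with a median of 0.09, against -0.01 for all 12343 genes tested. ATF4 had 605, 743 and 775 CPM with DMSO and 573, 678 and 841 CPM with OSMI-2, in CPM relative to the library size scaled by TMM (trimmed mean of M values), as are all CPM given beside a fold change. CHAC1 had 3.32, 4.80 and 4.81 CPM with DMSO and 4.65, 4.66 and 4.72 CPM with OSMI-2. The groups overlapped in all 10 genes and none passed an adjusted p of 0.05 in edgeR's quasi-likelihood test; of all genes 0% passed in either direction. At an unadjusted p under 0.05 there were 160 genes, none of them among the 10; DESeq2 called 1 gene, which was none of these. In these bulk libraries, fewer cells with a transcript and less transcript per cell cannot be told apart.

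After 6 h of OSMI-2, CHAC1 rose and no other gene of the 10 passed the threshold, although on the TMM scale 8 lay higher in both OSMI-2 libraries than in every DMSO library. CHAC1, which breaks down glutathione, had 2.16, 3.72 and 3.90 CPM with DMSO and 9.27 and 10.0 CPM with OSMI-2. It was thus above every control, with a mean of 9.64 ± 0.513 CPM (SD, n = 2) against 3.26 ± 0.959 CPM (SD, n = 3). The log2 fold change was 1.56 (SE 0.36; Benjamini-Hochberg adjusted p = 0.00542 in edgeR). This is 1 gene of 10 called higher, where 2.57% of the 12484 genes tested were called higher and 2.37% lower. Both bins of CHAC1 showed it, the first with 22 to 66 counts in DMSO libraries and 138 and 213 with OSMI-2, the second with 95 to 151 and 305 and 533.

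**Figure D1:**
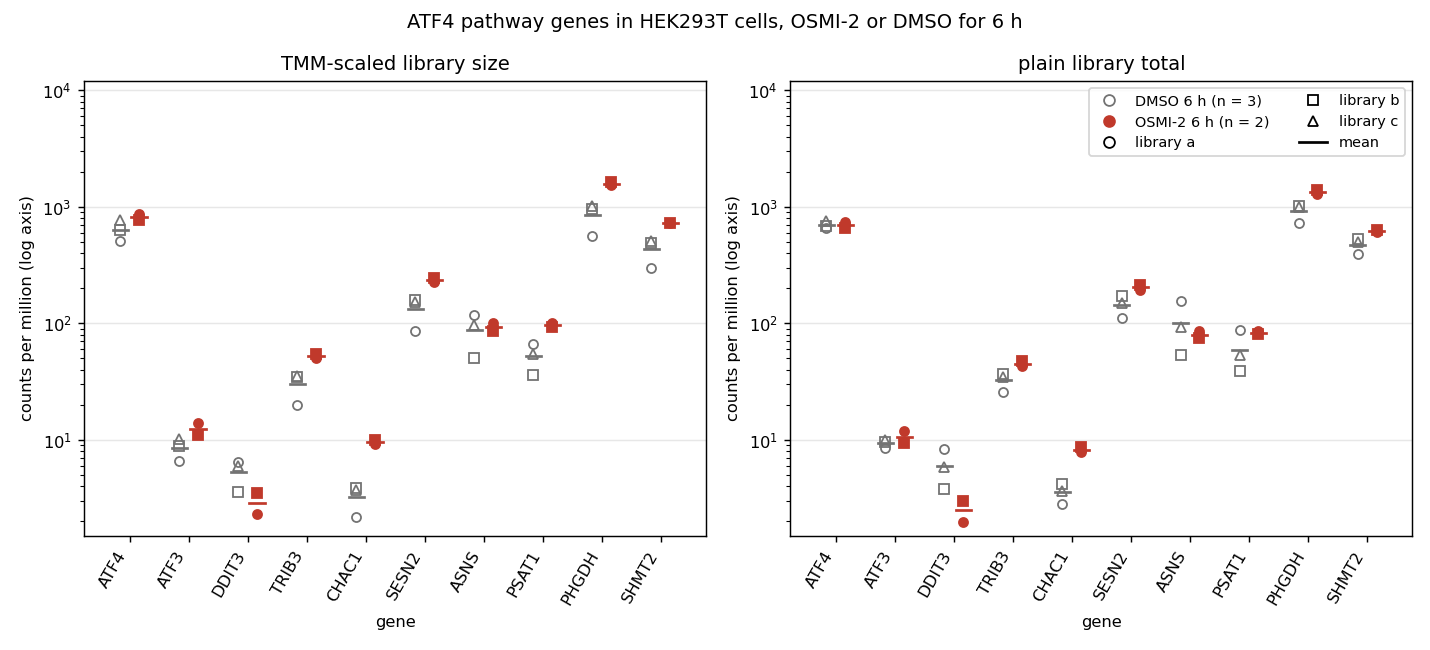
CPM on a log axis for each of the 10 genes in the 3 DMSO 6 h libraries (grey) and the 2 OSMI-2 6 h libraries (red), with group means as lines, on the TMM-scaled library size (left) and on the plain library total (right). TRIB3, CHAC1, SESN2, PHGDH and SHMT2 are higher without overlap on both scales, ATF4, ATF3 and PSAT1 on the TMM scale alone, and DDIT3 is lower on both.

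Among the transcription factors, ATF4 had 509, 636 and 765 CPM with DMSO and 768 and 875 CPM with OSMI-2, a log2 fold change of 0.37 (SE 0.34). ATF3 had 6.54, 8.94 and 10.1 CPM with DMSO and 10.9 and 13.9 CPM with OSMI-2 (0.53, SE 0.35). Both were therefore higher without overlap, ATF4 by the narrowest margin, and neither difference passed the test. DDIT3, which encodes the death-linked factor CHOP, lay on the opposite side, with 3.54, 6.02 and 6.40 CPM with DMSO and 2.30 and 3.47 CPM with OSMI-2 (-0.88, SE 0.38; Benjamini-Hochberg adjusted p = 0.147 in edgeR). It was the only one of the 10 below every control. Its 5 bins were all lower, by log2 ratios of -1.38 to -1.19 on plain totals. The end of MARS, a methionyl-tRNA synthetase gene on the opposite strand with 73.8 to 306 times the counts of DDIT3, overlaps 1 DDIT3 bin, and the use of strand in counting is not given in the sources used here; the other 4 bins lie outside this overlap.

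The feedback and growth regulators and the serine and one-carbon enzymes were higher in both OSMI-2 libraries. TRIB3 had 19.8, 34.6 and 35.5 CPM with DMSO and 50.2 and 55.0 CPM with OSMI-2 (log2 fold change 0.81, SE 0.31), and SESN2 had 85.3, 152 and 159 CPM and 226 and 247 CPM (0.84, SE 0.31). PSAT1 had 36.2, 54.4 and 66.8 CPM with DMSO and 93.1 and 101 CPM with OSMI-2 (0.89, SE 0.30), and PHGDH 559, 952 and 1016 CPM and 1531 and 1621 CPM (0.90, SE 0.36). In each, both treated libraries lay above every control, yet the adjusted p-values of these genes and SHMT2 (0.74, SE 0.34) ran from 0.0562 for PSAT1 to 0.166 for SHMT2 in edgeR's quasi-likelihood test with Benjamini-Hochberg adjustment. ASNS differed from the other enzymes, with 50.1, 95.8 and 118 CPM with DMSO and 85.7 and 101 CPM with OSMI-2, which overlap (0.08, SE 0.30). Of the 10 genes, 8 were higher and 1 lower without overlap, where 32.2% and 14.9% of all genes tested were. On plain library totals 5 were higher (TRIB3, CHAC1, SESN2, PHGDH and SHMT2) and DDIT3 lower, where 12.6% and 33.0% of all genes were; ATF4, ATF3 and PSAT1 then overlapped. Of the 10 genes 7 had an unadjusted p under 0.05, as did 2882 of the 12484. The median log2 fold change of the 10 was 0.77 and that of all genes 0.15.

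These values depended on the scaling and on 1 control. Scaled by plain library totals the median of all genes was -0.24 and that of the 10 genes 0.43, and no gene of the 12486 then tested was called; ATF4 then had 662 to 749 CPM with DMSO and 664 to 743 CPM with OSMI-2, CHAC1 had a log2 fold change of 1.22 with a Benjamini-Hochberg adjusted p of 0.102 in edgeR (9.26e-06 to 0.625 over all its alternatives), and ASNS turned from 0.08 to -0.33. Without DMSO 6 h library a, 6 of the 10 genes rose: TRIB3 (0.63), CHAC1 (1.38), SESN2 (0.65), PSAT1 (1.15), PHGDH (0.73) and SHMT2 (0.58), where 34.2% of all genes were called higher and 8.21% lower. With the trend on GC content removed, ATF3 (0.87) joined these, 7 in all, where 28.6% of all genes were higher and 3.69% lower. In a fit of all 23 libraries 9 were called, 8 higher and DDIT3 lower (-0.67), ASNS being the exception, where 39.5% of all genes were higher and 7.54% lower. With OSMI-2 6 h library a or b left out, the lone treated library is assumed to vary like the controls, so only the size is given. CHAC1 then had a log2 fold change of 1.62 or 1.51. All genes called split into 321 higher and 296 lower with TMM over genes and introns, 101 and 628 by DESeq2, and 33 and 481 with TMM over genes alone, but into 4247 and 1021 without DMSO 6 h library a, 3278 and 423 with the GC trend removed and 5022 and 959 with all 23 libraries.

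**Figure D2:**
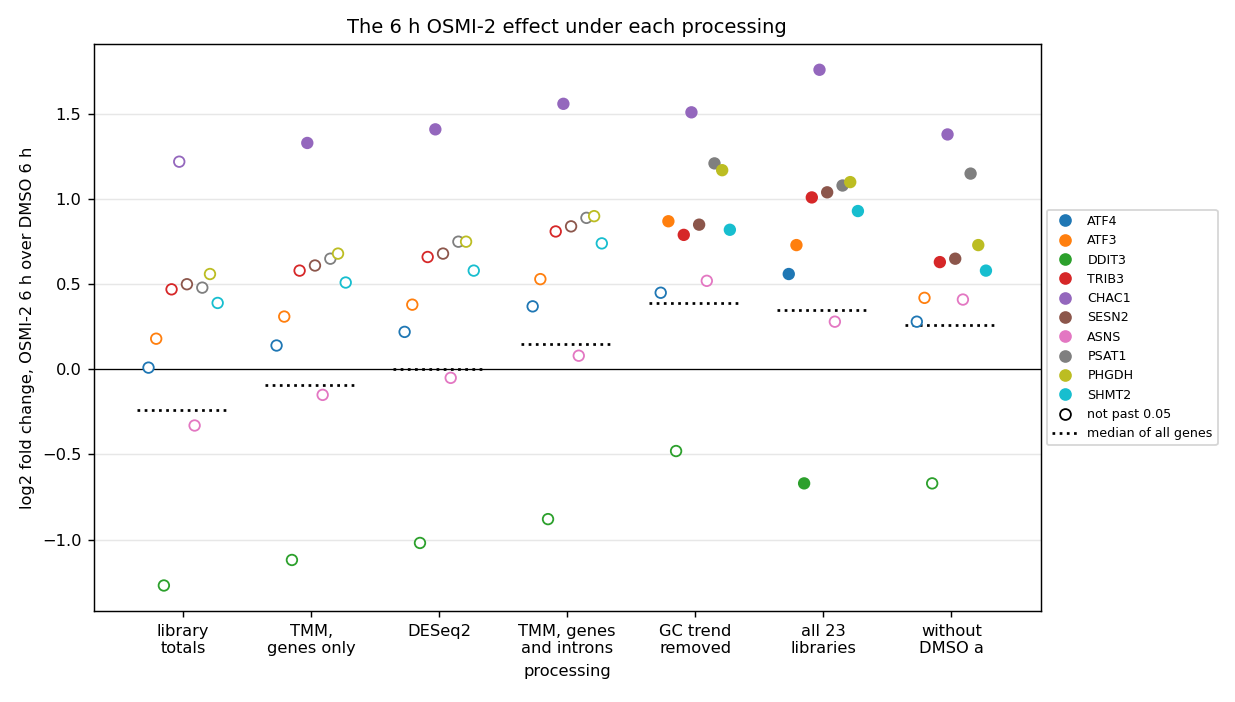
Log2 fold change of each gene, OSMI-2 6 h over DMSO 6 h, under 7 ways of processing the counts, with filled points for an adjusted p under 0.05 and dotted lines for the median of all genes. CHAC1 is highest and DDIT3 lowest under all 7, and the number of filled points runs from 0 with library totals to 9 with all 23 libraries in 1 fit.

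Other genes of the pathway were counted from lists, beside 2.57% of all genes called higher and 2.37% lower. Of 18 further ATF4 targets in amino acid and one-carbon metabolism 1 rose and none fell: PYCR1, which makes proline, had 192 ± 55.7 CPM with DMSO (SD, n = 3) and 384 ± 38.5 CPM with OSMI-2 (SD, n = 2; log2 fold change 1.0, SE 0.32; Benjamini-Hochberg adjusted p = 0.0444 in edgeR). Of 12 tested targets in growth control, cell death and secretion 2 rose. EIF4EBP1, the translation repressor 4E-BP1, went from 91.4 ± 28.4 to 202 ± 15.9 CPM (1.15, SE 0.30) and DDIT4, an mTORC1 inhibitor, from 58.9 ± 17.5 to 113 ± 3.31 CPM (0.95, SE 0.30). None of 14 genes for eIF2 kinases, eIF2, eIF2B and eIF2 phosphatase subunits, none of 7 tested transcription regulators of the pathway, and none of 9 endoplasmic reticulum chaperones of the ATF6 and XBP1 branches passed. The list medians were 0.20 (amino acid), 0.21 (growth), -0.04 (eIF2), 0.43 (regulators) and -0.08 (chaperones), against 0.15 for all genes. Without DMSO 6 h library a PYCR1 (0.82), EIF4EBP1 (0.95) and DDIT4 (0.76) again rose, and the lists had 6 of 18 (amino acid), 7 of 12 (growth, with 1 lower), 5 of 14 (eIF2), 2 of 7 (regulators) and 3 of 9 (chaperones) higher, beside the 34.2% of all genes.

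At 2 h of TMG, TRIB3, PHGDH and SHMT2 fell and none of the 10 genes rose. TRIB3 had 19.2, 19.7 and 20.5 CPM with DMSO and 16.2, 16.3 and 17.5 CPM with TMG, a log2 fold change of -0.25 (SE 0.07; Benjamini-Hochberg adjusted p = 0.0247 in edgeR). PHGDH had 685, 714 and 740 CPM with DMSO and 621, 636 and 654 CPM with TMG (-0.16, SE 0.05; Benjamini-Hochberg adjusted p = 0.0444 in edgeR). SHMT2 had 435, 439 and 471 CPM with DMSO and 375, 394 and 404 CPM with TMG (-0.20, SE 0.05; Benjamini-Hochberg adjusted p = 0.0180 in edgeR). In all 3 every TMG library lay below every DMSO library. SESN2, which was not called (0.05, SE 0.06), had every TMG library above every DMSO library. Overlap over all genes was counted for OSMI-2 at 6 h only, not here or in the comparisons below. The calls are 3 of 10 lower and 0 higher, where 6.67% of the 12361 genes tested were lower and 1.25% higher. The other 7 had log2 fold changes of -0.18 (ATF3) to 0.05 (SESN2), and the median of the 10 was -0.10 against -0.03 for all genes.

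The 3 calls rested on small differences: they were lost with library totals, with all 23 libraries in 1 fit, with the GC trend removed, and without TMG 2 h library b or c, and SHMT2 alone was called with TMM over genes alone and without DMSO 2 h library b, while the log2 fold changes under every alternative stayed between -0.29 and -0.17 for TRIB3, -0.20 and -0.12 for PHGDH and -0.23 and -0.15 for SHMT2. Genes called higher and lower numbered 154 and 824 with TMM over genes and introns and 384 and 562 by DESeq2. Of the further amino acid genes 5 of 18 fell at 2 h and none rose, where 6.67% of all genes were lower and 1.25% higher. The largest falls were SLC1A4 (-0.25, SE 0.06) and SLC7A5 (-0.23, SE 0.05), both amino acid transporters, then SLC1A5 (-0.22, SE 0.05) and SLC3A2 (-0.20, SE 0.05), and EIF4EBP1 fell by 0.19 (SE 0.05) as the 1 of 12 in its list. Of the chaperones 5 of 9 fell, led by PDIA4 (-0.32, SE 0.05), SDF2L1 (-0.31, SE 0.06), CRELD2 (-0.28, SE 0.05) and HSPA5 (-0.25, SE 0.05). No eIF2 gene and none of the 7 regulators passed at 2 h.

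At 6 h of TMG none of the 10 genes passed the threshold of edgeR's quasi-likelihood test (1.19% of 12103 genes were called higher and 4.84% lower). TRIB3 was again below its controls, with 12.9, 13.6 and 15.4 CPM with DMSO and 10.8, 11.7 and 12.6 CPM with TMG (log2 fold change -0.26, SE 0.10). ASNS had 282, 288 and 296 CPM with DMSO and 301, 317 and 320 CPM with TMG (0.12, SE 0.05), and PSAT1 346, 368 and 369 CPM and 389, 395 and 407 CPM (0.14, SE 0.05). These 3 did not overlap and failed the adjustment. They had unadjusted p under 0.05, as did 2721 of all genes. DESeq2 and TMM over genes alone called PSAT1, and the fit without the GC trend called ASNS. CHAC1 had 3.00, 3.08 and 3.90 CPM with DMSO and 3.21, 3.66 and 4.53 CPM with TMG, which overlap (0.19, SE 0.15). Of the lists, TSC22D3 (-0.48, SE 0.08), STC2 (-0.24, SE 0.06) and the chaperones SDF2L1 (-0.41, SE 0.11), CRELD2 (-0.27, SE 0.08) and PDIA4 (-0.26, SE 0.06) fell.

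**Figure D3:**
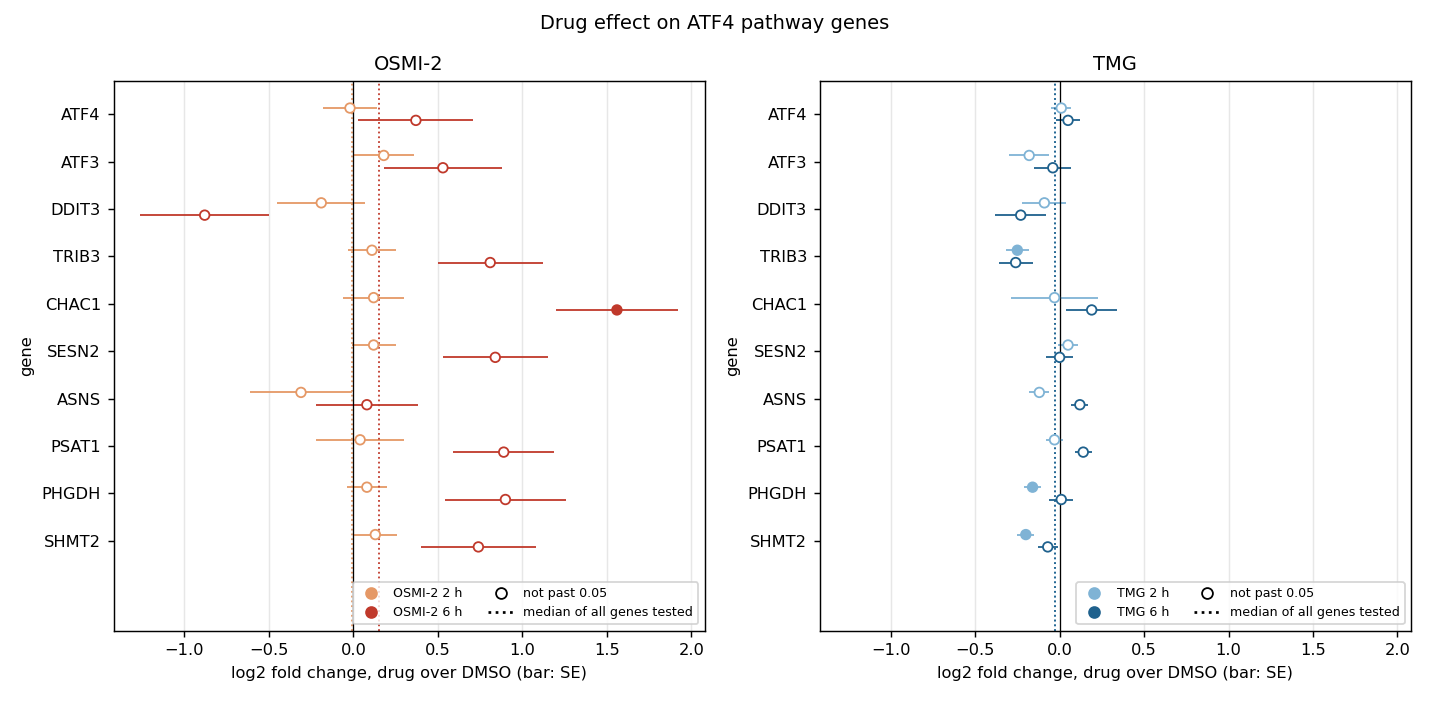
Log2 fold change of each gene against the DMSO libraries of the same experiment and time, with bars for the SE, for OSMI-2 (left) and TMG (right) at 2 h and 6 h. Filled points passed an adjusted p of 0.05 (CHAC1 for OSMI-2 at 6 h; TRIB3, PHGDH and SHMT2 for TMG at 2 h), and dotted lines are medians of all genes tested.

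The drugs were compared by the difference between their effects, each against its own controls. At 6 h the OSMI-2 effect exceeded the TMG effect in 6 of the 10 genes and fell below it in none: CHAC1 by a log2 difference of 1.52 (SE 0.33; Benjamini-Hochberg adjusted p = 0.0133 in edgeR), TRIB3 by 1.23 (SE 0.30), PHGDH by 1.05 (SE 0.30), SESN2 by 1.0 (SE 0.30), SHMT2 by 0.96 (SE 0.28) and PSAT1 by 0.91 (SE 0.28). The difference was 0.72 (SE 0.27) for ATF3, 0.47 (SE 0.26) for ATF4, 0.13 (SE 0.34) for ASNS and -0.48 (SE 0.37) for DDIT3, and these did not pass. Of all 12563 genes 19.9% passed in either direction, 2127 of them with the OSMI-2 effect above the TMG effect and 373 with it below, and the median was 0.94 for the 10 genes and 0.36 for all. With library totals, or with TMM over genes alone, 1 of the 10 passed, CHAC1 in both, and the split of all genes was 263 and 1040 with totals and 467 and 570 with TMM over genes; without DMSO 6 h library a of the OSMI-2 experiment 9 passed, where 75.0% of all genes did (9154 above and 254 below). Without OSMI-2 6 h library a or b a lone treated library remains, so no calls are given. Over all fits with a library left out, the CHAC1 difference was 1.42 to 1.76. Leaving out a, b or c of DMSO 6 h or of TMG 6 h in the TMG experiment left 1 to 3, CHAC1 in each. The share of all genes that passed was then 4.16% to 11.2%. At 2 h none of the 10 passed, and 0% of 12608 genes did; 2 of the 10, TRIB3 (0.41, SE 0.17) and SHMT2 (0.38, SE 0.16), had an unadjusted p under 0.05, as did 1025 of all genes, and DESeq2 called 1 gene of all. SHMT2 passed once library c of the OSMI-2 experiment's DMSO 2 h group was left out, where 2.15% of all genes did (250 above and 22 below).

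Whether a drug effect grew from 2 h to 6 h was tested in the same way. For OSMI-2 none of the 10 genes passed edgeR's interaction test, where 0.111% of 12627 genes did; CHAC1 had the largest difference at 1.39 (SE 0.37; Benjamini-Hochberg adjusted p = 0.130 in edgeR), 3 of the 10 and 1847 of all genes had an unadjusted p under 0.05, and DESeq2 called none of the 10. CHAC1 and PHGDH passed without DMSO 6 h library a, where 12.8% of all genes did. For TMG none passed either, where 0.0242% of 12399 genes did; the largest differences were 0.26 (SE 0.09) for ASNS and 0.24 (SE 0.30) for CHAC1, and 3 of the 10 and 1034 of all genes had an unadjusted p under 0.05. DESeq2 called none of the 10.

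In the TMG experiment all 10 genes differed between its DMSO libraries of 2 h and 6 h. All 10 genes passed the threshold: the regulators ATF4, ATF3, DDIT3, CHAC1 and SESN2 rose, and TRIB3 and the enzymes ASNS, PSAT1, PHGDH and SHMT2 fell. These are 5 of 10 higher and 5 lower, where 16.3% of the 12294 genes tested were higher and 29.6% lower. These libraries are also the controls of the TMG comparisons. Time in DMSO and time since the medium change cannot be told apart.

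CHAC1 rose most, from 0.508, 0.642 and 0.883 CPM at 2 h to 2.95, 3.01 and 3.84 CPM at 6 h, a log2 fold change of 2.27 (SE 0.21; Benjamini-Hochberg adjusted p = 5.73e-09 in edgeR). At 2 h it rested on 24 to 41 counts per library and at 6 h on 130 to 183. ATF3 went from 3.62, 4.57 and 4.81 CPM to 7.54, 8.71 and 9.85 CPM (1.0, SE 0.13), and SESN2 from 47.7, 49.7 and 50.1 CPM to 78.1, 83.8 and 92.6 CPM (0.79, SE 0.08). The groups were well apart in these 3 genes. DDIT3 went from 3.90, 4.28 and 4.67 CPM to 5.49, 7.50 and 8.47 CPM (0.74, SE 0.14), and ATF4 from 330, 347 and 387 CPM to 492, 562 and 610 CPM (0.64, SE 0.08). All bins of these 5 genes with a mean of at least 20 counts were higher at 6 h: 4 of 4 in ATF4, 4 of 4 in ATF3, 5 of 5 in DDIT3, 2 of 2 in CHAC1 and 10 of 10 in SESN2.

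ASNS fell most, from 648, 674 and 762 CPM at 2 h to 276, 283 and 292 CPM at 6 h (log2 fold change -1.29, SE 0.07; Benjamini-Hochberg adjusted p = 1.69e-12 in edgeR). Of its 14 bins outside the detained intron 13 were lower; the exception, E014 (chr7:97501031-97501308 on hg19), had 54 to 75 counts at 2 h and 62 to 101 at 6 h, where the first-exon bin E015 had 1538 to 1751 and 493 to 549. TRIB3 went from 19.3, 19.8 and 20.6 CPM to 12.7, 13.4 and 15.2 CPM (-0.54, SE 0.09). SHMT2 went from 438, 442 and 474 CPM to 295, 306 and 353 CPM (-0.50, SE 0.08), PHGDH from 690, 718 and 745 CPM to 482, 507 and 585 CPM (-0.45, SE 0.08), and PSAT1 from 434, 436 and 456 CPM to 339, 361 and 364 CPM (-0.32, SE 0.07). No library of one time reached into the range of the other in any of the 10 genes. Overlap was not counted over all genes, of which 45.9% passed the threshold here. All 10 calls held under each alternative except the fit of all 23 libraries, which called 6 (the 5 that rose, and ASNS).

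**Figure D4:**
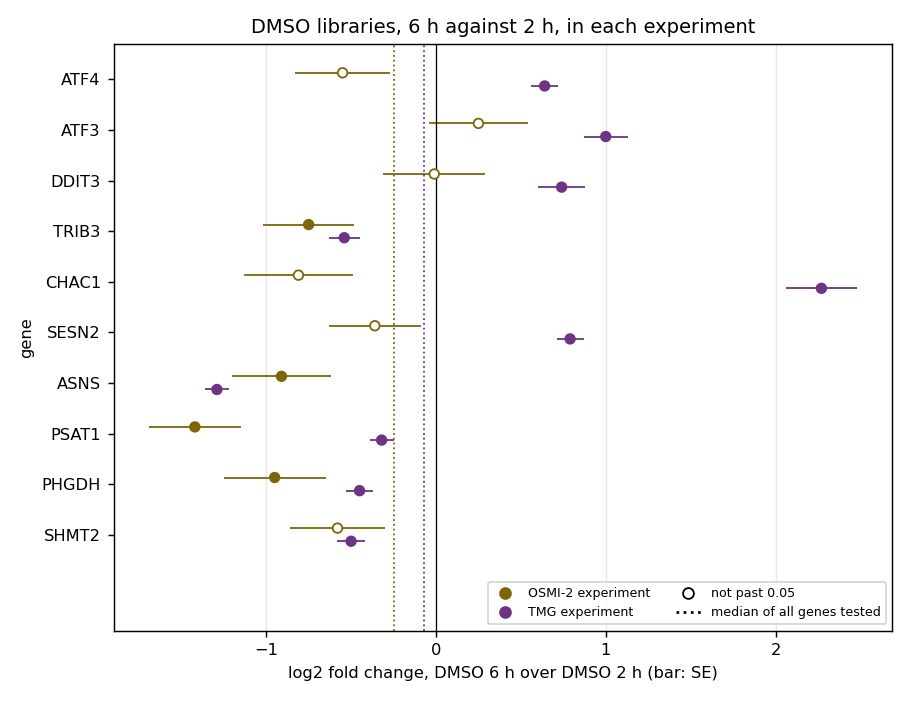
Log2 fold change of each gene from DMSO 2 h to DMSO 6 h, with bars for the SE, in the OSMI-2 experiment and in the TMG experiment. In the TMG experiment all 10 points are filled (adjusted p under 0.05), 5 on each side of 0; in the OSMI-2 experiment the 4 filled points, TRIB3, ASNS, PSAT1 and PHGDH, are below 0.

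The wider lists in the same libraries held rises and falls. Of the further amino acid and one-carbon targets 4 of 18 rose and 7 fell, where 16.3% of all genes were higher and 29.6% lower. The median of this list and that of all genes were both -0.07. The cystine carrier SLC7A11 had 10.1 ± 0.359 CPM at 2 h and 36.1 ± 3.99 CPM at 6 h (SD, n = 3 each; log2 fold change 1.84, SE 0.09). SLC38A2 rose by 0.85 (SE 0.07), SLC7A1 by 0.71 (SE 0.07) and MTHFD2 by 0.25 (SE 0.07). The falls were led by ALDH1L2, a mitochondrial folate enzyme, from 131 ± 5.55 to 53.6 ± 6.01 CPM (-1.28, SE 0.08), SLC1A4 (-0.83, SE 0.08), CTH (-0.72, SE 0.08) and PYCR1 (-0.45, SE 0.08). Of the growth, death and secretion targets 9 of 12 rose, among them VLDLR (1.30, SE 0.14), STC2 (1.04, SE 0.08), DDIT4 (1.01, SE 0.09) and SESN3 (0.58, SE 0.08), and EIF4EBP1 fell (-1.17, SE 0.10). Of the amino acid and one-carbon targets that changed, 3 of 4 transporters rose and 6 of 7 enzymes fell, a division made after their values were seen.

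Of the 7 regulators tested TSC22D3 rose (0.20, SE 0.08) and 4 fell, including ATF5 (-0.82, SE 0.11), CEBPG (-0.77, SE 0.18) and BATF3 (-0.61, SE 0.23); the other was NUPR1, at a mean of 36.5 counts. Of the 14 eIF2 genes EIF2S2 (0.29, SE 0.07) and PPP1R15B (0.24, SE 0.08) rose and none fell, beside 16.3% and 29.6% of all genes. Of the 9 chaperones HERPUD1 (0.89, SE 0.07) and EDEM1 (0.21, SE 0.08) rose and 5 fell, led by CRELD2 (-1.05, SE 0.08), PDIA4 (-0.89, SE 0.07), SDF2L1 (-0.80, SE 0.10) and HSP90B1 (-0.79, SE 0.07). The list medians were -0.07 (amino acid), 0.48 (growth), -0.61 (regulators), 0.06 (eIF2) and -0.33 (chaperones), against -0.07 for all genes and 0.16 for the 10 genes.

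In the OSMI-2 experiment the same interval in DMSO gave another picture: 4 of the 10 genes fell and none rose, where 14.0% of 12343 genes were lower and 4.59% higher. These libraries are the controls of the OSMI-2 comparisons. PSAT1 went from 94.5, 142 and 146 CPM at 2 h to 33.4, 50.1 and 60.2 CPM at 6 h (log2 fold change -1.42, SE 0.27; Benjamini-Hochberg adjusted p = 0.000885 in edgeR). PHGDH went from 1321, 1412 and 1747 CPM to 504, 877 and 936 CPM (-0.95, SE 0.30), and TRIB3 from 40.6, 43.1 and 55.2 CPM to 17.8, 31.8 and 32.7 CPM (-0.75, SE 0.27). These 3 did not overlap, and neither did ATF4, CHAC1 and SHMT2, which did not pass. Overlap was not counted over all genes. ASNS went from 96.0, 179 and 179 CPM to 46.1, 88.3 and 107 CPM (-0.91, SE 0.29) and overlapped through DMSO 2 h library c.

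Among those that did not pass, CHAC1 had 3.93, 5.70 and 6.11 CPM at 2 h and 1.94, 3.43 and 3.60 CPM at 6 h (-0.81, SE 0.32), ATF4 had 772, 881 and 916 CPM and 458, 586 and 705 CPM (-0.55, SE 0.28), and SHMT2 had a log2 fold change of -0.58 (SE 0.28). ATF3 (0.25, SE 0.29) was the only gene of the 10 with a fold change above 0. The scaling set the level here: on library totals the median of all genes moved from -0.25 to 0.32 and that of the 10 genes from -0.67 to -0.14, none of the 10 passed, and ATF4 had 615 to 794 CPM at 2 h and 662 to 749 CPM at 6 h. PSAT1 alone was called by DESeq2 and with TMM over genes alone. Genes called higher and lower were 567 and 1722 with TMM over genes and introns, 1123 and 694 by DESeq2 and 1635 and 102 with totals. Without DMSO 6 h library a TRIB3, ASNS, PSAT1 and PHGDH again fell, where 3573 of 12334 genes were lower and 1016 higher; without DMSO 2 h library a or b only PSAT1 did, and without DMSO 2 h library c only ASNS and PSAT1.

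Of the lists in these libraries, MTHFD2 (-0.84, SE 0.29), PYCR1 (-0.84, SE 0.28) and GPT2 (-0.71, SE 0.25) fell among the 18 amino acid genes. The shares of all genes were 14.0% lower and 4.59% higher. VLDLR (1.16, SE 0.35) and the death receptor TNFRSF10B (0.94, SE 0.25) rose and EIF4EBP1 (-1.35, SE 0.28) fell among the 12 growth and death genes. EIF2S1 (-0.93, SE 0.28) fell among the eIF2 genes, 1 of 7 regulators fell (NUPR1, at a mean of 26.2 counts), and the chaperones HSPA5 (-1.04, SE 0.27), DNAJB9 (-1.01, SE 0.33) and SDF2L1 (-0.97, SE 0.27) fell. Without DMSO 6 h library a each of these list genes was called in the same direction, and the genes called lower numbered 6 of 18 (amino acid), 3 of 12 (growth), 3 of 14 (eIF2), 4 of 7 (regulators) and 5 of 9 (chaperones), beside 3573 of all 12334 genes.

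The difference between the experiments in the DMSO time effect was tested after both had been seen. In 5 of the 10 genes the effect was lower in the OSMI-2 experiment: CHAC1 by a log2 difference of -3.25 (SE 0.39; Benjamini-Hochberg adjusted p = 0.000247 in edgeR), ATF4 by -1.35 (SE 0.24), SESN2 by -1.32 (SE 0.30), PSAT1 by -1.24 (SE 0.28) and ATF3 by -0.91 (SE 0.27). Of 12577 genes 13.2% passed in either direction. ASNS (0.24, SE 0.36), SHMT2 (-0.24, SE 0.29) and TRIB3 (-0.38, SE 0.30), whose fold changes were below 0 in both experiments, did not pass. On plain totals, with no TMM, ATF4, CHAC1 and SESN2 still passed as lower, and the split of all genes turned from 450 above and 1209 below to 2563 and 81. DDIT3 and PHGDH also passed without DMSO 6 h library a, where 5.01% of all genes were above and 51.4% below. For CHAC1 the experiments overlapped at 6 h, with 2.80 to 4.18 and 3.02 to 3.78 CPM of the library total, and apart at 2 h, with 3.40 to 4.87 CPM in the OSMI-2 experiment and 0.485 to 0.874 CPM in the TMG experiment. Experiment, GC slope and DMSO group cannot be told apart in this comparison.

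Of the 83 bins of the 10 genes, 2 carry the authors' mark for a detained intron, one that remains unspliced in polyadenylated RNA held back in the nucleus. ASNS_E009 (chr7:97488268-97488524, hg19, minus strand, 257 bases) and SHMT2_E009 (chr12:57626642-57626962, hg19, plus strand, 321 bases) are these bins. At OSMI-2 6 h, ASNS_E009 had 63, 33 and 32 counts in DMSO libraries a, b and c and 19 and 17 with OSMI-2, or 0.981%, 1.19% and 0.631% of the other ASNS counts against 0.393% and 0.266%. SHMT2_E009 had 188, 253 and 265 counts with DMSO and 68 and 179 with OSMI-2, or 1.15%, 0.922% and 0.986% against 0.198% and 0.330%. Both were below every control, with log2 fold changes of -1.37 (SE 0.42; Benjamini-Hochberg adjusted p = 0.00195 in edgeR) and -1.17 (SE 0.29; Benjamini-Hochberg adjusted p = 0.000116 in edgeR). The background was larger still: 86.9% of 4677 detained introns were called, with a median of -1.55. Overlap was not counted over all introns. The authors' deposited table gives log2 fold changes of bin usage of -1.43 (adjusted p 0.00419) and -1.89 (adjusted p 2.04e-11) for the ASNS and SHMT2 introns. With TMM over detained introns alone, which centres them on each other, the fold changes turned to 0.12 and 0.28 and neither passed. Without DMSO 6 h library a they were -0.94 and -1.26 and both passed, and without OSMI-2 6 h library b ASNS_E009 (-0.98) did not.

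In DMSO both introns rose from 2 h to 6 h. In the OSMI-2 experiment ASNS_E009 changed by 1.08 (SE 0.39) and SHMT2_E009 by 1.18 (SE 0.25), where 90.3% of introns were called and the median was 1.70; with TMM over detained introns alone these became -0.57 and -0.43. They were 0.72 and 1.35 without DMSO 6 h library a, and ASNS_E009 did not pass (Benjamini-Hochberg adjusted p = 0.0769 in edgeR). In the TMG experiment ASNS_E009 went from 33, 30 and 27 counts to 71, 113 and 87 (1.71, SE 0.26; Benjamini-Hochberg adjusted p = 1.17e-07 in edgeR) and SHMT2_E009 from 92, 98 and 84 to 145, 144 and 130 (0.74, SE 0.21), where 21.9% were called and the median was 0.41. The SHMT2 call was lost with TMM over detained introns alone (0.33) and without DMSO 2 h library b (0.70) or c (0.72), at Benjamini-Hochberg adjusted p of 0.190, 0.0593 and 0.0520 in edgeR, while ASNS_E009 kept its call in all 3 (1.29, 1.63 and 1.68). The ASNS intron thus rose while the ASNS exons fell, and its share of the other ASNS counts went from 0.0825% to 0.0916% at 2 h to 0.526% to 0.901% at 6 h. Relative to its gene, ASNS_E009 changed by 2.95 (SE 0.31, limma with Benjamini-Hochberg adjusted p = 2.54e-06) and SHMT2_E009 by 1.24 (SE 0.28). The median over 4077 introns was 0.40, and 627 of them passed. OSMI-2 at 2 h (0.129% called), TMG at 2 h (9.81%) and TMG at 6 h (0.190%) left both introns short of the threshold, with log2 fold changes of 0.03 to 0.38.

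**Figure D5:**
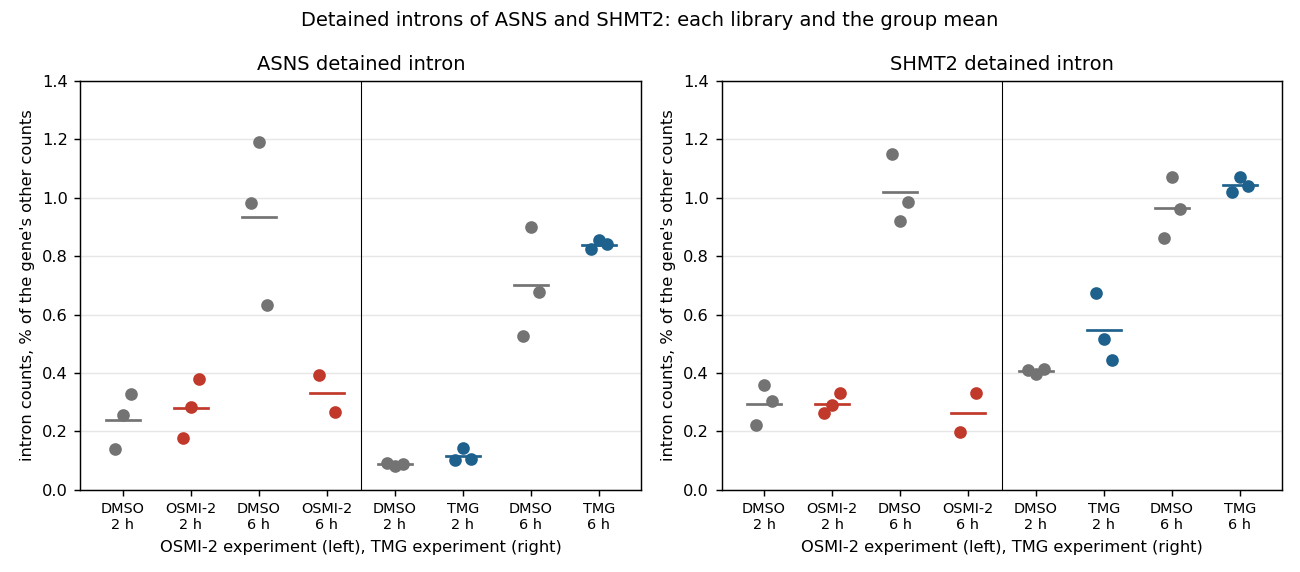
Counts in the detained introns of ASNS (left) and SHMT2 (right) as a percentage of the other counts of the gene, for each library (points) and group (mean as a line), in grey for DMSO, red for OSMI-2 and blue for TMG. DMSO 6 h stands above DMSO 2 h in both experiments, and the OSMI-2 6 h libraries, at 0.198% to 0.393%, lie below all DMSO 6 h libraries.

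Across the 8 group means of log2 CPM, scaled by TMM over all 23 libraries with 0.5 added, the 10 genes did not follow a single profile. Against the mean standardised profile of the other 9, Pearson's r was 0.94 for ATF4, 0.90 for CHAC1, 0.88 for SESN2, 0.76 for PHGDH, 0.68 for TRIB3 and SHMT2 and 0.65 for ATF3, but -0.22 for DDIT3, -0.58 for PSAT1 and -0.77 for ASNS. The genes outside the 10 with the most similar profile to their mean were CENPA (r = 0.99), ACLY (0.98), AIFM1 (0.97), PITRM1 (0.97) and NDRG3 (0.97). These r are descriptions over 8 points that share an experiment in groups of 4, whose GC slopes have opposite signs in the 2 experiments.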

How the data were processed

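Polyadenylated RNA was sequenced from TruSeq stranded libraries, per the labels' protocols. Reads were aligned with STAR to hg19, per the submitters' processing notes; versions and the use of strand in counting are not given in the sources used here. The authors deposited raw counts per gene bin, not normalized, and their own p-values adjusted for multiple testing and log2 fold changes of bin usage per comparison. Of the 13236 gene groups 154 merge several genes. Counts were summed per gene over all bins except detained introns; library size was the table total scaled by TMM over genes and introns of the libraries compared. The main test was the two-sided quasi-likelihood test of edgeR 4.0.16 (R 4.3.3, filterByExpr), fitted over all genes and adjusted by Benjamini and Hochberg at 0.05, and the SE was derived from the log2 fold change and the F statistic. Introns relative to their gene were tested with limma 3.58.1. Alternatives were DESeq2 1.42.0, other scalings, no filter, introns kept in, all 23 libraries, GC trend removed (GC known for 92.7% of genes) and each library left out; values of list genes, OGT and MGEA5 without DMSO 6 h library a, and overlap on library totals, were added after the results had been seen. On simulated counts for OSMI-2 at 6 h, over 12432 genes, 22.0% of 2-fold and 96.0% of 4-fold changes were recovered. Introns were simulated without change, whereas 86.9% were called in the data, so a shift of the scaling by introns is not covered. For TMG at 2 h and DMSO time in the TMG experiment, 100% and 94.9% of 2-fold changes were recovered. Replicate pairs differed beyond sampling noise in all 22 pairs (chi-square over degrees of freedom 4.33 to 304), so none was merged. From each list up to 4 called genes per direction, the largest changes with mean counts of 50 or more, are named; NUPR1 was named after its values were seen. The 10 genes and the lists were chosen with earlier results of these data known.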

Additional observations from a re-analysis of the deposited data

Results flagged for a closer look

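The effects of the drugs at 6 h, each against its own DMSO libraries, differed by the edgeR interaction test in 6 genes, all with OSMI-2 above TMG on the log2 scale: CHAC1 by 1.52, TRIB3 by 1.23, PHGDH by 1.05, SESN2 by 1.0, SHMT2 by 0.96 and PSAT1 by 0.91. Of all 12563 genes 19.9% passed, 2127 of them with OSMI-2 above TMG and 373 with it below. With library totals CHAC1 alone of the 10 passed, where 10.4% of all genes did.

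The change from 2 h to 6 h in DMSO differed between the experiments in 5 genes, the OSMI-2 experiment minus the TMG experiment being -3.25 for CHAC1, -1.35 for ATF4, -1.32 for SESN2, -1.24 for PSAT1 and -0.91 for ATF3. Of all 12577 genes 13.2% passed, 450 of them above 0 and 1209 below. This test was added after the time effects had been seen.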

How the results depend on the processing

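Of 19 counts of genes or introns under 225 alternatives, 174 were within 1.5 times the value reported and 51 were not. Of 52 single results under 505 alternatives, 393 kept direction and side of the threshold, 108 lost the call and 4 reversed; the cause was not tested. For OSMI-2 at 6 h (1 of the 10 genes called) library totals gave 0, all 23 libraries 9 and GC trend removed 7. These settings called 0%, 47.0% and 32.3% of all genes. Leaving out a DMSO library gave 1 to 6, the 6 beside 42.4% of all genes. For TMG at 2 h (3 called) totals, all 23 libraries and GC removed gave 0 and TMM over genes 1 (0 to 3 with a library left out). In that order 4.88%, 0%, 5.06% and 6.15% of all genes were called. For TMG at 6 h (0 called) DESeq2, TMM over genes and GC removed gave 1 (0 to 1), beside 7.63%, 5.74% and 10.1% of all genes. For DMSO time in the OSMI-2 experiment (4 called) DESeq2 and TMM over genes gave 1, totals 0, all 23 libraries 7 and GC removed 8 (1 to 4). All these calls were lower, beside 5.27%, 2.37%, 0.826%, 38.0% and 54.0% of all genes called lower. For DMSO time in the TMG experiment (10 called) all 23 libraries gave 6 (10 in each with a library left out). That fit called 14.4% of all genes. For the OSMI-2 effect over time (0 called) all 23 libraries gave 6 and GC removed 2 (0 to 2), beside 19.4% and 14.5% of all genes. For the difference between drugs at 2 h (0 called) leaving out a library gave 0 to 1, the 1 beside 2.15% of all genes. At 6 h (6 called) totals and TMM over genes gave 1, beside 10.4% and 8.25% of all genes. Leaving out a DMSO or TMG library at 6 h gave 1 to 9, beside 4.16% to 75.0% of all genes. For DMSO time between experiments (5 called) totals gave 3 and GC removed 9 (4 to 7). All these calls were lower, beside 0.645% and 55.8% of all genes called lower with totals and GC removed. With TMM over detained introns alone, none of the ASNS and SHMT2 introns was called for OSMI-2 at 6 h (0.12 and 0.28, reversed) or DMSO time in the OSMI-2 experiment (-0.57 and -0.43, reversed), so the count was 0 in both, and ASNS alone was called for DMSO time in the TMG experiment (count 1; SHMT2 0.33). On library totals the genes higher without overlap for OSMI-2 at 6 h numbered 5, not 8. With a library left out the introns called numbered 1 to 2 for OSMI-2 at 6 h, 0 to 1 for TMG at 6 h, and 1 to 2 for DMSO time in either experiment.

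No paired analysis was possible because the columns carry letters that the labels do not tie to the replicate numbers. Depth limits CHAC1 most, at 24 to 41 counts in the DMSO 2 h libraries of the TMG experiment.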

Other observations

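The first SHMT2 bin (chr12:57623357-57623370, hg19, 14 bases) had at most 3 counts in 16 of the 23 libraries and 40 to 240 counts in the other 7, and 6 of the 8 groups held libraries of both kinds.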
